A study of Mus musculus with 12 samples.

Results

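Neutrophils labelled LysMcre Socs3fl/fl were compared with neutrophils labelled Socs3fl/fl, both kept without granulocyte colony-stimulating factor (G-CSF). The comparison takes 6 of the 12 libraries of the series, 3 of each genotype, chosen by their labels, and 13565 of the 13935 rows of the gene table, those with a mean of at least 10 normalized counts over these 6 libraries. The cells were taken from mouse femoral bone marrow and flow-sorted as CD45+ CD11b+ Ly6G+ cells after lysis of red cells. They were then kept for 8 h in medium with serum. In Socs3fl/fl mice the Socs3 gene is flanked by loxP sites, and the LysMcre Socs3fl/fl mice carry in addition the Cre recombinase inserted at Lyz2, the lysozyme M gene, which is active in neutrophils, monocytes and macrophages. All 12 libraries therefore come from animals with floxed Socs3, and the groups used here hold no Cre without it, so an effect of the Cre insertion and an effect of Socs3 loss cannot be told apart. The other 6 libraries have the same genotypes and were kept for the same 8 h with 10 ng/ml G-CSF. They serve here to read the same genes a second time, in an alternative fit of all 4 groups and in an interaction test. The labels used here give no age or strain background. They also leave unsaid if replicates are different animals, and p-values then measure only how far these libraries vary, which can be technical.

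SOCS3 is a suppressor of cytokine signalling. It is made after cytokine receptors activate Janus kinases and the transcription factor STAT3, and it binds gp130-type receptors and the G-CSF receptor to shut the kinase down and to mark the complex for degradation. Bone marrow neutrophils carry the G-CSF receptor, and G-CSF is the main cytokine of their production and release. The untreated libraries give the state of both genotypes when no cytokine is added.

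The targeted gene was read first. Socs3 (ENSMUSG00000053113.3) lies on the minus strand of chromosome 11 at 117966079 to 117970047 (mm10). It stood at 224.9, 201.3 and 247.5 normalized counts in floxed libraries and at 313.4, 311.2 and 252.5 in libraries labelled LysMcre. The lowest LysMcre-labelled library lay just above the highest floxed library, so the gene was not lower under the label that names its deletion. The log2 difference, LysMcre-labelled minus floxed, was 0.38 (SE 0.12, 95% confidence interval 0.12 to 0.64), with an unadjusted p of 0.0091 and a limma adjusted p of 0.992. Because the table holds 1 value per gene, a transcript that lacks the floxed part cannot be told apart from a whole one. The groups are therefore named by their labels throughout, as LysMcre-labelled and floxed, and each direction is that of the label. The promoter of Socs3 is shown because its known regulators are STAT factors. Capitals mark the palindrome TTCNNNGAA, the core of STAT binding sites, in the 250 bases before the RefSeq start (GRCm38.p6, chr11:117969367-117969616, minus strand), which lies inside the longer GENCODE span given above. The same letters are in 7.02% of 32851 promoter windows of this length, and a match is a description of the sequence, not of binding.

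Socs3 promoter: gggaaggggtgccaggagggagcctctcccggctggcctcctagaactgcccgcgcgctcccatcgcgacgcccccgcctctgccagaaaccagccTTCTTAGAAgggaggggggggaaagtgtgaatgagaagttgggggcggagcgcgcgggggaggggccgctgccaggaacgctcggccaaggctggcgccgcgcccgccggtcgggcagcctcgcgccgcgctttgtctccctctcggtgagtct

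Few genes differed between the genotypes. Of 13565 genes tested 12 passed the threshold, an adjusted p under 0.05 in limma, which is 0.0885% of the genes. They were 6 higher in LysMcre-labelled libraries (0.0442%) and 6 lower (0.0442%). Those lower were Lyz2, Lyz1, Dynlt1b, Tmem181b-ps, Fam46c and Glb1, and those higher were Igkv8-30, Ighg2b, Nfatc1, Nnt, Wdfy1 and Mdm1. The called gene nearest to the threshold was Glb1 (limma adjusted p = 0.0198), and the nearest gene outside it was Gm42868 (limma adjusted p = 0.0632). At an unadjusted p under 0.05 stood 515 genes, or 3.8% of those tested, with 254 higher (1.87%) and 261 lower (1.92%). The groups did not overlap for 1258 genes (9.27%), of which 521 were higher (3.84%) and 737 lower (5.43%). The differences were small for most genes: 81.9% lay within 0.2 on the log2 scale, the median was -0.01, and 95% lay between -0.36 and 0.49. Only 97 genes differed by a log2 value of 1 or more in either direction. Of these, 72 were immunoglobulin genes, all higher in LysMcre-labelled libraries, and 6 had passed the threshold. Ighg2b and Igkv8-30 count in both classes, and 21 others were in neither. DESeq2 on the recovered reads called 31 of 13563 genes (0.229%), among them all 12, and a limma fit without the trended prior called 6.

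**Figure D1:**
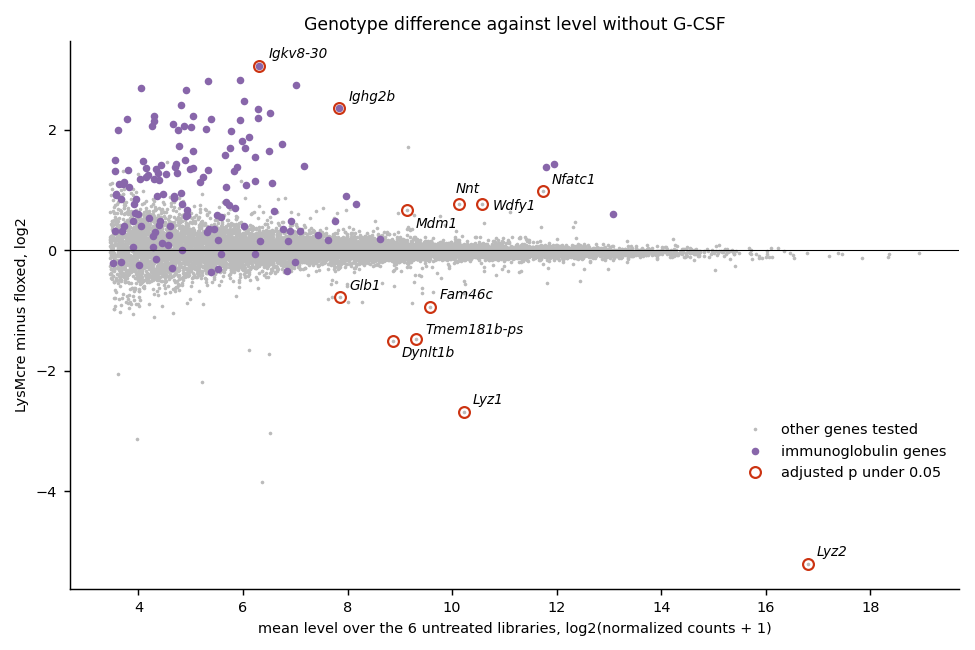
Each point is 1 of the 13565 genes tested. The x axis is its mean level over the 6 untreated libraries and the y axis the log2 difference, LysMcre-labelled minus floxed. Red rings mark the 12 genes past the threshold and purple points immunoglobulin genes. Most genes lie within 0.2 of zero, Lyz2 lies lowest at -5.20, and 129 of 140 immunoglobulin genes lie above zero.

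Lyz2 and Lyz1 carried the widest falls among the called genes. Both encode lysozyme, the enzyme that cuts bacterial cell walls, and Lyz2 is the form of neutrophils and macrophages. Lyz2 (ENSMUSG00000069516.8, chromosome 10, 117277331 to 117282321) stood at 226031, 219608 and 222142 normalized counts under the floxed label and at 5646, 6602 and 5911 under the LysMcre label. The groups were far apart, with means 36.8-fold apart (log2 -5.20, SE 0.06, limma adjusted p = 5.19e-11). Lyz1 (ENSMUSG00000069515.6, chromosome 10, 117287797 to 117292868) starts 10.5 kb away. It stood at 2159, 2047 and 1978 against 429.1, 231.2 and 331.5 normalized counts, a log2 difference of -2.68 (SE 0.18, limma adjusted p = 0.000155). The first 240 bases of both coding sequences are shown because they bear on how far the counts can be told apart. Over all 447 coding bases they differ at 22 positions (95.1% identical), of which the 17 shown are in capitals, and 16.1% of the 50-base windows of Lyz1 transcripts also occur in Lyz2. No source used here says how reads of such windows were assigned, and the value of Lyz1 is uncertain. The sequences were read from GENCODE M21 transcripts, whose whole coding parts span, for Lyz2, chr10:117278121-117282242 and, for Lyz1, chr10:117288583-117292838, both on the minus strand with introns removed.

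Lyz2 coding sequence, start: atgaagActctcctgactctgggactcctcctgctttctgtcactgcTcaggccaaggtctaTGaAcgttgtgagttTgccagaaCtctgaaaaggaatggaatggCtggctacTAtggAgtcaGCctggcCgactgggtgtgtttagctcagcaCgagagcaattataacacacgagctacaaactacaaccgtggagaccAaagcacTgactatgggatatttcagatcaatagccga
Lyz1 coding sequence, start: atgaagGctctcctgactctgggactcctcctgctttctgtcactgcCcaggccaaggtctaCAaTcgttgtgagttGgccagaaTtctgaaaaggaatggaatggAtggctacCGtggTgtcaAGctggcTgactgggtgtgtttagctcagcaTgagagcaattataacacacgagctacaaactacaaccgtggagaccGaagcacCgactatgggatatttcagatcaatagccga

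Genes around the Cre insertion were also read by distance from Lyz2. Of 23 other genes whose annotated start lies within 2 Mb, 2 were called, Lyz1 and Mdm1, and 6 had an unadjusted p under 0.05, or 26.1% beside 3.8% of all genes. Between 2 and 5 Mb, 0 of 18 genes had such a p and 0 were called in limma. From 5 to 10 Mb it was 1 of 32 (3.12%), and on the rest of the chromosome 11 of 546 (2.01%), with 0 called in limma in either range. Mdm1 (ENSMUSG00000020212.14, chromosome 10, 118141811 to 118168997), which encodes a microtubule-binding protein of centrioles, starts 864.5 kb from Lyz2. It stood at 431.6, 397.5 and 470.6 normalized counts in floxed and 676.2, 651.6 and 728.8 in LysMcre-labelled libraries. The groups did not overlap (log2 0.66, SE 0.08, limma adjusted p = 0.0138), and the call was lost without LysMcre-labelled replicate 1 or 2 or floxed replicate 1. On either side of the lysozyme genes lie 2 genes that were not called, Yeats4, a reader of acetylated histones, with a log2 difference of 0.32 (unadjusted p = 0.00593, limma adjusted p = 0.992), and the RNA 3′-end processing factor Cpsf6 with 0.22 (unadjusted p = 0.0113). Yeats4 stood at 999.7, 941.4 and 936.4 normalized counts in floxed libraries against 1239, 1028 and 1358, and the groups did not overlap. Further out, Dyrk2 was at 0.36 and Thap2 at -0.61, neither called. In this window differences thus stood on both sides of zero.

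A second pair of called neighbours lies on chromosome 17. Dynlt1b (ENSMUSG00000096255.2, 6430112 to 6436296) encodes a light chain of cytoplasmic dynein, the motor that carries cargo along microtubules, and Tmem181b-ps (ENSMUSG00000096780.7, 6438524 to 6467022) is a transcribed pseudogene of a membrane protein gene. In floxed libraries Dynlt1b stood at 661.9, 699 and 702.1 normalized counts and in LysMcre-labelled libraries at 257.7, 245 and 221.9. Its mean was 2.85-fold lower (log2 -1.51, SE 0.08, limma adjusted p = 2.02e-05). Tmem181b-ps stood at 914.5, 994.5 and 891.2 against 330.2, 355.9 and 318.5 normalized counts, 2.79-fold lower (log2 -1.48, SE 0.07, limma adjusted p = 2.02e-05). Both genes kept their calls in all 18 alternatives run. Of the 8 listed genes of these 2 families, 2 passed, both lower, and 6 did not. The log2 difference was -0.16 for Dynlt1c and -0.30 for Tmem181c-ps, with groups that did not overlap (unadjusted p = 0.0416 and 0.0402), and -0.04 for Tmem181a, -0.13 for Dynlt1a and 0.03 for Dynlt1f. The first 240 bases of the Dynlt1b coding sequence are printed because its copies are nearly the same. The capital letter is the 1 of all 342 bases at which it differs from Dynlt1f, and it also differs from Dynlt1a and from Dynlt1c at 1 base each (99.7% identical in each case). Of the 50-base windows of its transcript 83.2% occur in another gene, and for Tmem181b-ps this share was 49.6%, so the split of reads within these families is uncertain. The list was drawn up with these differences known and gives no independent evidence of a direction. The whole coding part spans chr17:6430212-6435967, plus strand, in GENCODE M21, and introns were removed.

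Dynlt1b coding sequence, start: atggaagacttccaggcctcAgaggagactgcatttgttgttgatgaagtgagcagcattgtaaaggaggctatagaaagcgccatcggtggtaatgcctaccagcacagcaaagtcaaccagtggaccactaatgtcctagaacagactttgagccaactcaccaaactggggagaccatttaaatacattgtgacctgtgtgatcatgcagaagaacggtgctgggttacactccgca

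On chromosome 3, Fam46c (now Tent5c, 100468057 to 100489192), a poly(A) polymerase that stabilizes messenger RNAs of secreted proteins, was 1.92-fold lower. It stood at 985.9, 947.4 and 1080 normalized counts in floxed and 515.3, 521.8 and 533.9 in LysMcre-labelled libraries, with little spread in either group (log2 -0.94, SE 0.06, limma adjusted p = 0.000158). The 2 predicted genes that start 21.6 and 29.4 kb from it lay lower as well but were not called. Gm12474 stood at 49.03, 51.4 and 77.17 against 6.31, 14.61 and 17.64 normalized counts (log2 -2.20, limma adjusted p = 0.133). Gm42868, which lies within Gm12474 so that the values of both are uncertain, stood at 133.2, 123.4 and 150.6 against 25.24, 52.43 and 48.28 (log2 -1.73, limma adjusted p = 0.0632). The groups did not overlap for either. Gm42868 passed in edgeR (adjusted p = 0.0443) and in DESeq2 (adjusted p = 8.45e-08), and Gm12474 in DESeq2 (adjusted p = 7.86e-05). Gm42868 and Gm12474 also passed in the limma fit of all 4 groups (adjusted p = 0.0107 and 0.0248).

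On chromosome 9, Glb1 (ENSMUSG00000045594.10, 114401076 to 114474898), the lysosomal beta-galactosidase, stood at 278.2, 311.8 and 283.3 normalized counts in floxed and 163, 185.7 and 159.7 in LysMcre-labelled libraries. The groups did not overlap (1.72-fold lower, log2 -0.78, SE 0.10, limma adjusted p = 0.0198). Its call is the least stable of the 12: it was lost in 8 of 18 alternatives, among them the fit of all 4 groups, equal totals and leaving out any library other than LysMcre-labelled replicate 2. Its neighbour Crtap, a collagen-modifying protein gene that starts 25.9 kb before it, lay the other way, at 43.7, 44.54 and 33.88 against 70.46, 61.03 and 55.71 normalized counts (log2 0.61, unadjusted p = 0.00886, limma adjusted p = 0.992).

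On chromosome 8, no gene was called, but the adhesion receptor gene Adgrg5 (94923694 to 94943280) had the widest difference of the genes outside the threshold that the naming rule covers. It stood at 155.6, 149.1 and 139.3 normalized counts in floxed libraries and at 9.465, 85.1 and 5.571 in LysMcre-labelled libraries. LysMcre-labelled replicate 2 lay between the other 2 and the floxed group (log2 -3.04, SE 0.76, limma adjusted p = 0.872), and without it the log2 difference was -4.17 and passed the threshold. Ciapin1, an assembly factor for iron-sulfur proteins that starts 103.9 kb before it, showed the same order of libraries. It stood at 816.4, 857.5 and 800.9 against 483.8, 670.5 and 464.2 normalized counts (log2 -0.63, limma adjusted p = 0.411), and without LysMcre-labelled replicate 2 its log2 difference was -0.80 and passed. With all 6 libraries Ciapin1 passed in DESeq2 (adjusted p = 0.000686). In all, 8 of 38 genes within 1 Mb of Adgrg5 had an unadjusted p under 0.05 (21.1%), in both directions. Around the called genes other than immunoglobulin genes, 10 of 86 genes not called within 1 Mb had such a p (11.6%, beside 3.8% of all genes).

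**Figure D2:**
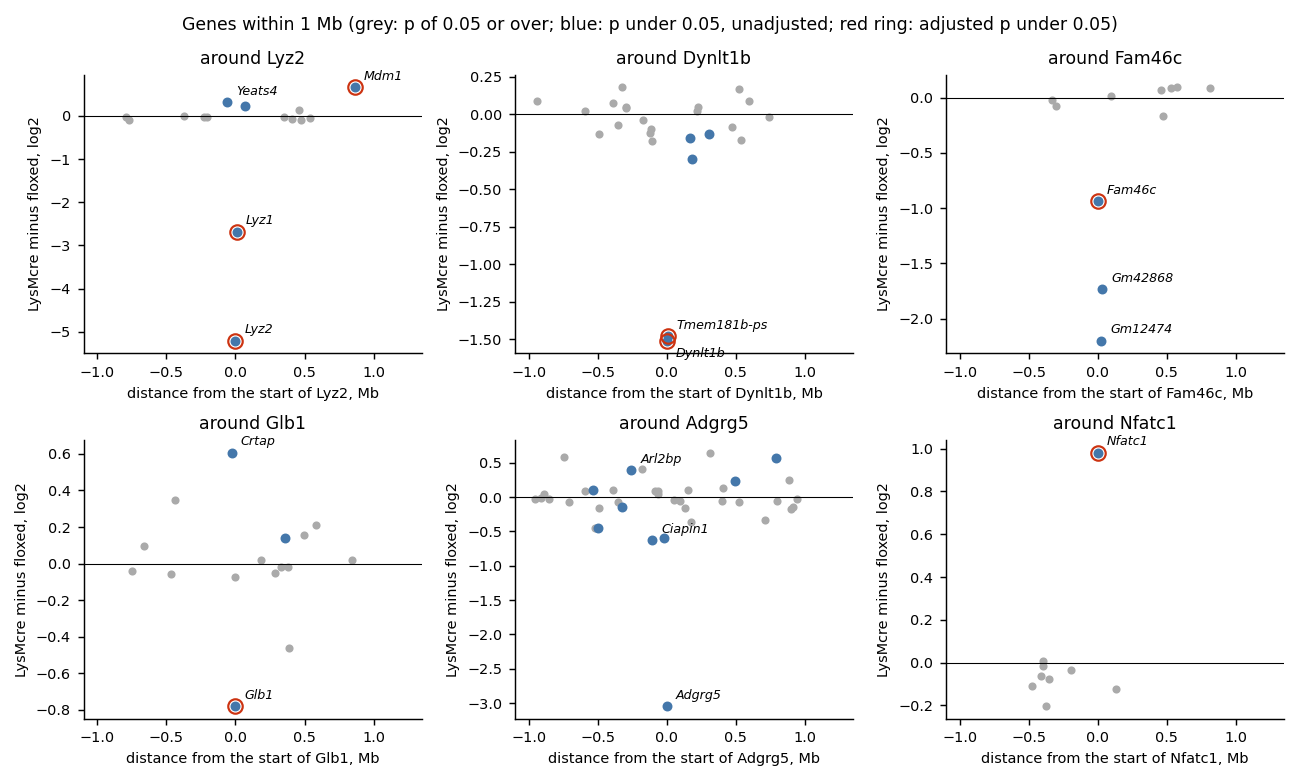
Log2 difference, LysMcre-labelled minus floxed without G-CSF, of the genes within 1 Mb of 6 genes, against the distance between starts in Mb. Blue points have an unadjusted p under 0.05 and red rings an adjusted p under 0.05. Lyz1 lies beside Lyz2, Tmem181b-ps beside Dynlt1b and the 2 predicted genes beside Fam46c, Crtap lies above zero beside Glb1, and Nfatc1 has no neighbour with a p under 0.05.

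Nfatc1, Wdfy1 and Nnt were higher and had no neighbour within 1 Mb with an unadjusted p under 0.05, among 8, 7 and 10 genes tested there. Nfatc1, a transcription factor that moves to the nucleus when calcineurin removes its phosphates, stood at 2246, 2227 and 2416 normalized counts in floxed and 4527, 4729 and 4348 in LysMcre-labelled libraries. The means were 1.97-fold apart, many times the spread within either group (log2 0.98, SE 0.05, limma adjusted p = 2.02e-05), and the call held in all 18 alternatives. Of the 20 tested NFAT and calcineurin genes Nfatc1 alone passed. Its relative Nfatc3 was at 0.14 and the calcium sensor Stim2 at -0.14 on the log2 scale, neither called, and the median of the list was -0.01, equal to that of all genes. Wdfy1 (ENSMUSG00000073643.11, chromosome 1, 79702262 to 79776143), an endosomal adaptor of toll-like receptor signalling, stood at 1094, 1132 and 1173 against 1742, 1899 and 2122 normalized counts. It was 1.70-fold higher (log2 0.76, SE 0.07, limma adjusted p = 0.00216), and it alone passed among 22 toll-like receptors and adaptors, whose median was -0.01. Nnt (ENSMUSG00000025453.18, chromosome 13, 119335448 to 119408997), the mitochondrial transhydrogenase that makes NADPH, stood at 819.6, 839.5 and 830.1 against 1448, 1610 and 1217 normalized counts. The difference was 1.72-fold (log2 0.77, SE 0.09, limma adjusted p = 0.012), and its call was lost without LysMcre-labelled replicate 1, floxed replicate 1 or floxed replicate 3. Of 30 tested antioxidant and NADPH-supplying genes Nnt alone passed. The cystine transporter Slc7a11 was at -0.21, the superoxide dismutase Sod2 at -0.18 and Idh2 at 0.16, none of them called, and the median was -0.01.

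**Figure D3:**
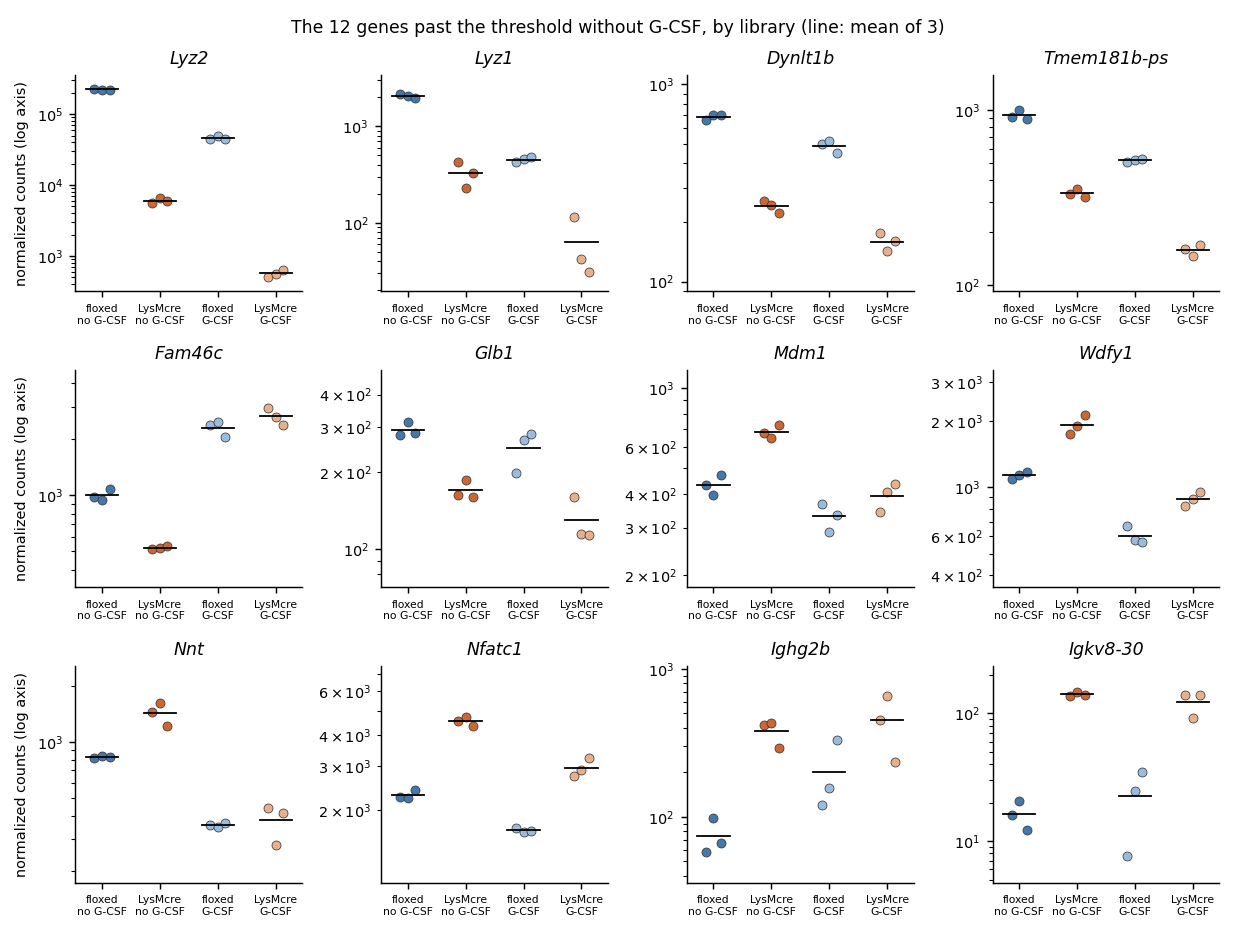
Normalized counts of the 12 genes past the threshold, on log axes, in each of 3 libraries of the 4 groups, with the mean as a line. Without G-CSF the LysMcre-labelled and floxed libraries do not overlap for any of the 12. With G-CSF the Fam46c, Mdm1, Nnt and Ighg2b groups overlap, and the Lyz2 groups are further apart.

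The 2 remaining called genes were immunoglobulin genes, which are rearranged and transcribed in B cells and plasma cells. Ighg2b, the constant part of the IgG2b heavy chain (ENSMUSG00000076613.4, chromosome 12, 113302965 to 113307933), stood at 57.55, 98.51 and 66.82 normalized counts in floxed and 420.7, 432.4 and 291.5 under the LysMcre label (5.14-fold, log2 2.36, SE 0.21, limma adjusted p = 0.00154). The kappa segment Igkv8-30 (ENSMUSG00000076577.2, chromosome 6, 70117061 to 70117620) stood at 15.99, 20.56 and 12.23 against 135.7, 147 and 138.3 (8.63-fold, log2 3.06, SE 0.21, limma adjusted p = 0.000158). All members with an immunoglobulin gene name were then read as a group, chosen after their values were seen. Of 149 such names 140 were tested, 2 passed, both higher, and 138 did not. The number that passed was 10 in DESeq2, 5 without LysMcre-labelled replicate 3, 4 without floxed replicate 2, 3 without floxed replicate 3 and 1 without the trended prior. The median log2 difference was 1.06, beside -0.01 over all genes, 51 were higher and 1 lower at an unadjusted p under 0.05 (37.1% beside 3.8%), and for 27 the LysMcre-labelled libraries all lay above the floxed ones, beside 3.84% of all genes. The 51 became 32 without LysMcre-labelled replicate 1, 33 without floxed replicate 1, 77 without LysMcre-labelled replicate 3 and 31 without the trended prior. Segments of 1 locus that share sequence are not independent, and 19.1% of the 50-base windows of Igkv8-30 also occur in other genes. Summed over the 140 genes, the level was 11356, 19909 and 15864 normalized counts under the floxed label and 40443, 31235 and 19611 under the LysMcre label, so LysMcre-labelled replicate 3 lay just under floxed replicate 2.

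Most of the immunoglobulin signal came from the 11 constant genes, which summed to 8668, 15189 and 12225 normalized counts in floxed and 30248, 23861 and 14949 in LysMcre-labelled libraries. The kappa constant gene Igkc stood at 1201, 2610 and 1910 normalized counts in floxed and 7783, 5137 and 2649 under the LysMcre label (log2 1.38, unadjusted p = 0.00389, limma adjusted p = 0.959). Igha, of the IgA heavy chain, stood at 1103, 4033 and 1782 against 6126, 7027 and 3572, with overlapping groups (log2 1.43, limma adjusted p = 0.992). Jchain, which links IgA and IgM units, stood at 167.3, 445.4 and 181.6 against 1229, 970.5 and 405.7, also overlapping (log2 1.72, limma adjusted p = 0.903). Other B cell genes that do not encode antibody lay on both sides of zero: the log2 difference was 0.06 for Cd79a, -0.14 for Pax5, -0.17 for Ms4a1 and -0.20 for Vpreb3. Values in the B and plasma cell marker list ran from -0.29 to 1.72, the latter for Jchain. The plasma cell genes Sdc1 and Mzb1 were at 0.08 and 0.01. Over the whole list of 17 B and plasma cell markers 0 were called in limma (3 had an unadjusted p under 0.05), the median was 0.05, and the summed level ran from 11224 to 16443 normalized counts in floxed and 16560 to 28541 in LysMcre-labelled libraries. The list's members did not all follow these sums: floxed replicate 1 was lowest for 11 of the 17 and floxed replicate 3 highest for 11. The heavy chain gene Ighm alone stood at 5553, 7327 and 7332 against 14393, 9652 and 7343. In a bulk sample, fewer or more cells of a type and less or more RNA per cell cannot be told apart, and what part such cells have in the 2 calls was not tested. Single segments were carried by single libraries. Igkv6-25 stood at 6.395, 14.56 and 32 in floxed and at 237.7, 30.09 and 44.57 in LysMcre-labelled libraries, and Igkv3-12 at 11.72, 15.42 and 4.706 against 57.84, 28.37 and 244.2. Igkv8-30, in contrast, was even across the 3 LysMcre-labelled libraries.

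The same 12 genes were read in the 6 libraries kept with G-CSF, which this comparison did not use. There 4536 of 13578 genes passed (33.4%), 2288 higher (16.9%) and 2248 lower (16.6%). Of the 12 genes 9 passed in the same direction: Lyz2, Lyz1, Dynlt1b, Tmem181b-ps and Glb1 lower, and Wdfy1, Nfatc1, Ighg2b and Igkv8-30 higher. Whether libraries with and without G-CSF came from the same mice is not stated in the labels. Nfatc1 stood at 1692, 1642 and 1651 normalized counts against 2740, 2898 and 3240 (log2 0.83), Wdfy1 was at 0.55 and Glb1 at -0.94. Ighg2b stood at 120.2, 155.8 and 328.6 against 450.7, 658.1 and 236.2, so its groups overlapped although it passed (log2 1.16, limma adjusted p = 0.0278). Dynlt1b was at -1.61 and Tmem181b-ps at -1.69, close to their values without G-CSF. The remaining 3 did not pass with G-CSF. Fam46c stood at 2403, 2470 and 2069 against 2952, 2631 and 2393 (log2 0.20, SE 0.09, limma adjusted p = 0.111), Mdm1 was at 0.26 and Nnt at 0.06. The interaction of genotype and G-CSF, which tests whether the difference itself differed, passed for Lyz2, Fam46c and Nnt (limma adjusted p = 3.78e-06, 5.94e-06 and 0.0136), beside 22.4% of 13915 genes. For Mdm1 it did not pass (limma adjusted p = 0.0685). The 12 genes were chosen on untreated differences that the interaction uses again, so the choice itself favours a smaller difference with G-CSF.

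**Figure D4:**
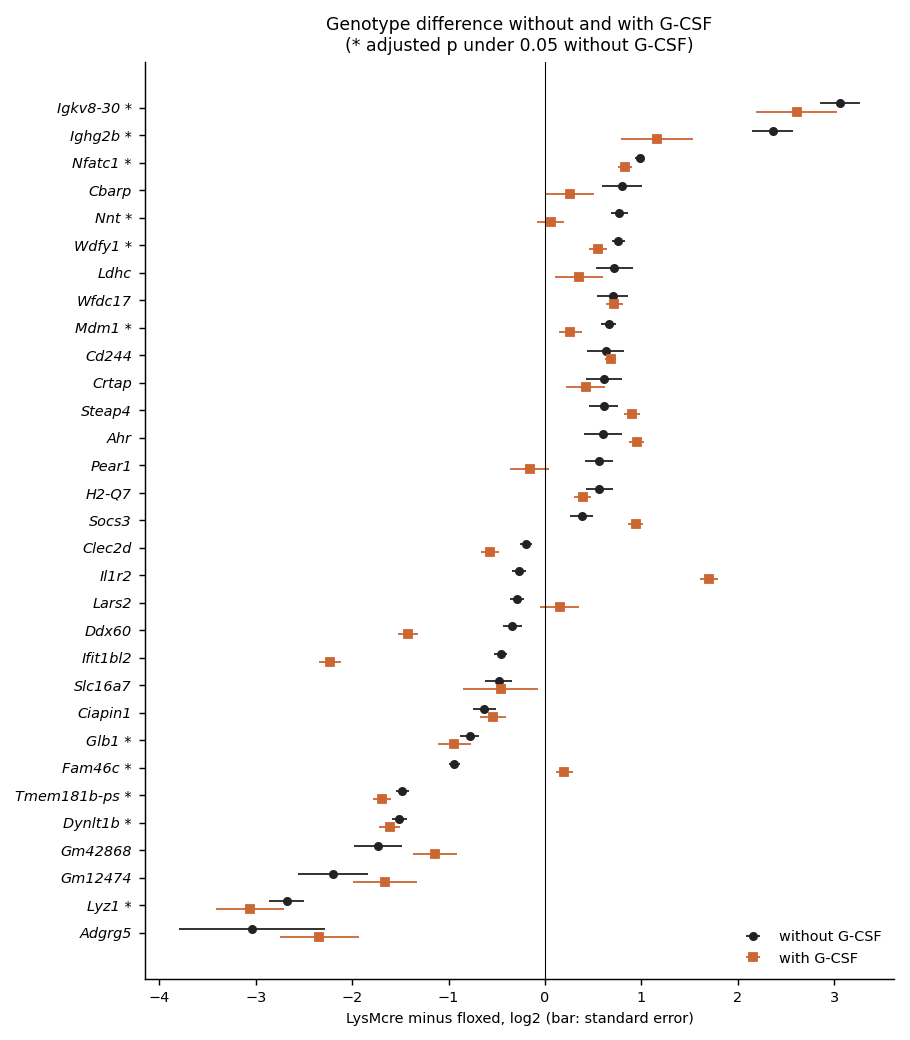
Log2 difference, LysMcre-labelled minus floxed, without G-CSF (black circles) and with G-CSF (orange squares), with standard errors as bars. It shows Socs3 and the named genes with the widest differences other than Lyz2, and stars mark genes called without G-CSF. Fam46c, Il1r2, Lars2 and Pear1 lie on opposite sides of zero in the 2 conditions, and Dynlt1b and Nfatc1 lie close together.

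Steap4, Ahr and Nos2 did not pass in the 6 libraries. They were called when all 12 libraries shared 1 estimate of spread, a fit with 16 calls of 13915 genes (0.115%) that takes part of its spread from the G-CSF libraries. That fit also called Gm12474 and Gm42868, described above. The metalloreductase Steap4 stood at 52.22, 61.68 and 52.7 normalized counts in floxed and 78.88, 89.4 and 86.35 under the LysMcre label (log2 0.61, SE 0.15, limma adjusted p = 0.817 in the 6 libraries and 0.00173 in the 12). With G-CSF its values were 17621, 20021 and 18781 against 33725, 35087 and 36578. Ahr, the aryl hydrocarbon receptor, stood at 20.25, 20.56 and 21.65 against 31.55, 31.8 and 32.5 (log2 0.60, limma adjusted p = 0.992 and 0.0445). Nos2, the inducible nitric oxide synthase, was under the minimum of 10. It stood at 1.066, 0.8566 and 1.882 against 6.31, 3.438 and 3.714 normalized counts, where 1 read is worth about 1, and no fold is given. Wfdc17 and Cd244 were called in neither fit. The secreted inhibitor Wfdc17 stood at 151.3, 159.3 and 111.1 against 274.5, 200.3 and 212.6 (log2 0.70, limma adjusted p = 0.806), and passed in DESeq2 (adjusted p = 0.0465). The immune receptor Cd244 was at 0.63, with 85.26, 122.5 and 76.23 against 168.3, 124.6 and 141.1 normalized counts, so that the groups only just stood apart. With G-CSF Wfdc17 was at 0.72 and Cd244 at 0.68, both past the threshold.

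Leaving aside immunoglobulin genes and the other classes the naming rule omits, the genes not yet described that lay outside the threshold with the widest differences, in groups that did not overlap, with an unadjusted p under 0.01 and a mean of at least 50, were Cbarp (log2 0.80), the lactate dehydrogenase Ldhc (0.72), Pear1 (0.56) and the class I histocompatibility gene H2-Q7 (0.56) on the higher side. H2-Q7 stood at 725.8, 602.2 and 754.8 against 1304, 949 and 862.5 normalized counts and passed in DESeq2 (adjusted p = 0.00384). H2-Q5 and H2-Q6, named after their values were seen, also passed in DESeq2 (log2 0.51 and 0.43, adjusted p = 0.0289 and 0.017). How far reads of these H2-Q genes can be told apart was not tested. On the lower side were the monocarboxylate transporter Slc16a7 (-0.48), the interferon-induced Ifit1bl2 (-0.46) and the RNA helicase Ddx60 (-0.34). The mitochondrial leucyl-tRNA synthetase Lars2 (-0.29), the interleukin 1 decoy receptor Il1r2 (-0.27) and the lectin Clec2d (-0.20) followed. Ifit1bl2 stood at 1010, 919.2 and 1120 against 725.7, 752.1 and 738.1 normalized counts and had a limma adjusted p of 0.121, but passed in DESeq2 (adjusted p = 0.000686). Il1r2 stood at 1087, 995.4 and 1151 against 886.6, 930.9 and 861.6. With G-CSF it stood at 5664, 5947 and 5689 against 16133, 19199 and 21259, so it lay on the other side of the floxed level.

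The cytokine pathway that SOCS3 acts on was read from receptors to target genes, and none of its members was called without G-CSF. Of 21 listed receptor chains 19 were tested, with a median log2 difference of -0.02. The G-CSF receptor Csf3r was at 0.04, gp130 (Il6st) at 0.27, the leukaemia inhibitory factor receptor Lifr at 0.28 and the common beta chain relative Csf2rb2 at 0.22. Il6st stood at 367.7, 524.3 and 304.9 against 642.6, 457.3 and 351.9 normalized counts, so the groups overlapped. All 11 Janus kinases and STAT factors were tested, and their median was -0.01. Stat3, the factor downstream of the G-CSF receptor, stood at 7444, 7303 and 7424 normalized counts in floxed and 7470, 7452 and 7091 under the LysMcre label (log2 -0.01, SE 0.04). Stat5a and Stat5b were both at 0.01, Stat6 at -0.06, Stat4 at -0.02 and Stat2 at -0.13. Jak1 was at -0.07, Jak2 at 0.04, Tyk2 at 0.03 and Jak3 at 0.20. The groups did not overlap for 1 of the 11, Jak3, a share near the 9.27% of all genes.

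The other brakes on cytokine signalling lay close to zero. In the SOCS family, whose members bind receptors or kinases through an SH2 domain, the log2 difference was -0.11 for Socs1, 0.04 for Socs2, -0.10 for Socs4, 0.00 for Socs5, 0.13 for Socs6, -0.04 for Socs7 and -0.05 for Cish, and none passed. Cish, a target of STAT5, stood at 300.6, 248.4 and 233.4 against 261.9, 221.8 and 269.3 normalized counts. Socs1 stood at 119.4, 115.6 and 139.3 against 103.1, 126.4 and 117. With G-CSF, the same 2 genes were at 2.07 and 1.40 and passed. Of the 18 brakes tested, Socs3 alone had an unadjusted p under 0.05. Of 19 STAT target genes 2 had one and none passed, with a median of 0.01: Batf, a transcription factor, was at 0.30 (111.9, 113.9 and 104.5 against 126.2, 154.7 and 127.2) and Il1r2 at -0.27. Myc was at 0.27 and Cebpb at 0.16.

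The NADPH oxidase, the complex with which neutrophils make superoxide, did not differ beyond the spread between libraries. Of 10 listed genes 9 were tested and none passed, and the groups overlapped for all 9. The catalytic subunit Cybb stood at 44384, 39461 and 44937 normalized counts in floxed and 38215, 34729 and 42936 under the LysMcre label (log2 -0.16, SE 0.08). Its partner Cyba was at -0.06, the cytosolic subunits Ncf1 and Ncf4 at -0.07 and -0.01, and the GTPases Rac1, Rac2 and Rap1a at -0.02, 0.00 and 0.03. The proton channel Hvcn1 was at -0.03. For Ncf1 the 95% confidence interval of the log2 difference ran from -0.23 to 0.10.

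Across 27 pathway lists, which were drawn up with earlier results of these data known, 470 genes were tested and 7 were called, in 5 lists. Over all 13565 genes tested 12 were called (0.0885%), and lists drawn up with results known can hold called genes by choice. The 7 were Lyz1, Lyz2, Dynlt1b, Tmem181b-ps, Nfatc1, Nnt and Wdfy1, all described above. List medians ran from -0.35 to 0.14, and 23 of 27 lay within 0.1 of zero. Among 23 inflammatory cytokines and chemokines tested, the macrophage growth factor Csf1 was at 0.38, with 477.5, 530.3 and 472.4 against 713, 638.7 and 580.3 normalized counts (unadjusted p = 0.00151, limma adjusted p = 0.732). The chemokine Ccl4 was at 0.63 and Ccl3 at 0.29. Over the 23 the median was 0.05, and 10 lay below zero, down to -0.54. Of 24 immediate early genes none was called. The median was 0.05, with 7 below zero, down to -0.26, and the named members were Egr2 at 0.39, Atf3 at 0.34, Egr1 at 0.29 and Jun at 0.27. LysMcre-labelled replicate 1 was highest for 10 of these 24 genes and LysMcre-labelled replicate 3 lowest for 10. NF-kappaB genes had a median of -0.05, and 5 of 18 had LysMcre-labelled libraries all below the floxed ones (27.8% beside 5.43%), among them Nfkbiz (-0.16), Nfkbie (-0.14) and Birc3 (-0.13), none called. LysMcre-labelled replicate 3 was lowest for 11 of the 18, with a median deviation of -0.09, while the other 2 LysMcre-labelled libraries were at 0.00. Granule genes of the late stages had a median of -0.09, with Chil3 at -0.26, Camp at -0.15, Lcn2 at -0.14 and Ltf at -0.13. The groups overlapped for these 4, and 1 of the 19 genes, Mmp8, had groups apart (log2 -0.12, unadjusted p = 0.0309), a share near the 5.43% of all genes. The 20 glycolysis genes had a median of -0.02 and the 20 nucleolar genes one of 0.04, and neither list had a called member.

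The listed interferon-stimulated genes differed more between libraries than between genotypes without G-CSF. These genes are switched on by interferons, with STAT2 and IRF9 among the factors that act on them. Of 53 listed 51 were tested, 49 had a negative log2 difference and the median was -0.35, beside -0.01 over all genes, but 0 were called in limma (4 had an unadjusted p under 0.05) and the groups overlapped for every one. Ifit3 stood at 698.1, 290.4 and 1442 normalized counts in floxed and 588.9, 291.4 and 277.6 under the LysMcre label (log2 -0.87, SE 0.49, limma adjusted p = 0.992). Irf7, a master regulator of the response, stood at 1328, 949.1 and 2043 against 1099, 790.8 and 1003 (log2 -0.52). Usp18, a brake on the interferon receptor, stood at 205.7, 143.1 and 424.4 against 188.2, 97.13 and 127.2 (log2 -0.80). Floxed replicate 3 was the highest of the 6 libraries for 49 of the 51 genes, against 21.3% of all genes, and its median deviation from the genes' means was 0.64, while floxed replicate 2 was at -0.29. The 3 LysMcre-labelled libraries were at 0.03, -0.32 and -0.12, within the floxed range or next to it. Without floxed replicate 3 the list median was -0.13, and without floxed replicate 2 it was -0.54. The interferon-induced Ifit1bl2, which is not on the list, lay lower with groups apart (log2 -0.46, limma adjusted p = 0.121). With G-CSF 52 listed genes were tested, of which 6 passed higher and 23 lower, beside 16.9% and 16.6% of all genes. Their median there was -0.30.

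The promoters of 3 of the genes with the widest differences are shown because these genes varied together across the libraries. Capitals mark the letters of the interferon-stimulated response element, GAAA followed after any 2 bases by a second GAAA, or the reverse complement of this, TTTC, 2 bases and TTTC, searched on both strands in the 250 bases before the RefSeq start (GRCm38.p6, plus strand): Ifit3 at chr19:34583279-34583528, Ifit3b at chr19:34607707-34607956 and Ifit1 at chr19:34640639-34640888. Each window holds 2 matches. Of 39 interferon genes with a RefSeq promoter 19 held the motif at any listed start (48.7%), against 3.4% of 9381 genes tested. Over all 32851 single windows it was 2.98%. The median log2 difference was -0.51 for those with it and -0.34 for the 20 without.

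Ifit3 promoter: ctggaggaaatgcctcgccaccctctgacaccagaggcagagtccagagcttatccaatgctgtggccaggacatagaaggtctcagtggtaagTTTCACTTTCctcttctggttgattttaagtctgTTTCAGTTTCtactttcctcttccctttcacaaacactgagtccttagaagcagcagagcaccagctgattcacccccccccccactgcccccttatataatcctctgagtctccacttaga
Ifit3b promoter: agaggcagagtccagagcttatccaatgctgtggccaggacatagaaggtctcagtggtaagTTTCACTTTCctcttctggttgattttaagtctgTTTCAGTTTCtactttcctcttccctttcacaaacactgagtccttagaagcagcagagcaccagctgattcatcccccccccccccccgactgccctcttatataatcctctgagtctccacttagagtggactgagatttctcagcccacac
Ifit1 promoter: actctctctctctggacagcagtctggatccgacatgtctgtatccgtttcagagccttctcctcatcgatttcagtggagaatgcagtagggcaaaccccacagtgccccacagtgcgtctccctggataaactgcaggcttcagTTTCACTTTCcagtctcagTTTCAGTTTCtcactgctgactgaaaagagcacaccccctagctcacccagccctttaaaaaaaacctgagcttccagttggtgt

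**Figure D5:**
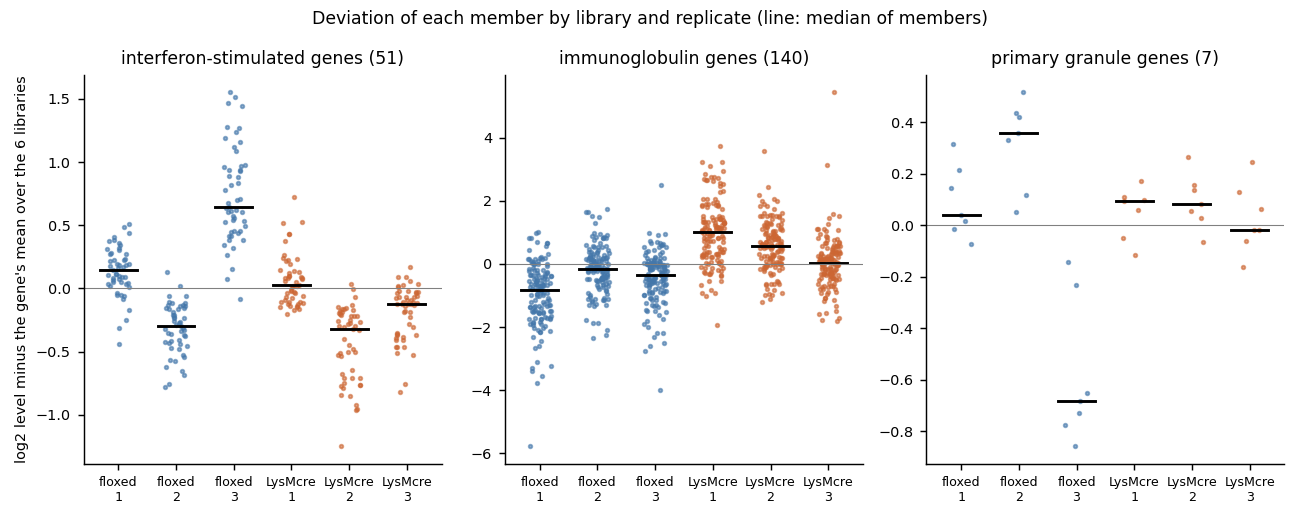
Deviation of each gene's log2 level from its mean over the 6 untreated libraries, for 51 interferon-stimulated genes, 140 immunoglobulin genes and 7 primary granule genes, by library. Blue points are floxed and orange points LysMcre-labelled libraries, and lines are medians over genes. Floxed replicate 3 stands highest for interferon genes (0.64) and lowest for primary granule genes (-0.68), and LysMcre-labelled replicate 1 stands highest for immunoglobulin genes (1.00).

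Other libraries also stood apart for single groups of genes. Primary granule genes, which are made in promyelocytes, were lowest in floxed replicate 3 for all 7 members tested, against 17.6% of all genes. Mpo stood at 5190, 6854 and 3097 against 5469, 5634 and 5360 normalized counts, and the list median was 0.14. Markers of eosinophils, basophils and mast cells were low in floxed replicate 1, with a summed level of 2401 against 4945 to 7077 in the other 5 libraries, and Prss34 stood at 508.4, 3410 and 2107 against 2169, 2280 and 2778. All 14 tested members of this list lay above zero, with a median of 0.52. Floxed replicate 1 was lowest for 8 of them, and LysMcre-labelled replicate 3 and floxed replicate 2 were highest for 7 and 6. How far the median rests on any 1 library was not tested. T and NK cell markers, of which 10 of 15 were tested, summed to 484 to 544.9 normalized counts in floxed and 573.2 to 610.9 in LysMcre-labelled libraries, with a median of 0.17. Erythroid markers summed to 1211 in floxed replicate 3 and 1835 in LysMcre-labelled replicate 3, against 270.3 to 446.6 in the other 4. In these 10 marker lists no gene was called in limma. The neutrophil markers summed to 1899528 to 2108026 normalized counts in floxed and 1803801 to 2121539 in LysMcre-labelled libraries, and all 12 were tested. Ly6g and Itgam, which the sort used, were at -0.14 and -0.11 and Ptprc at -0.01. Depth ran from 19495754 to 24748708 recovered reads in the 6 libraries. The first component of variance among them held 39% and did not separate the genotypes, since LysMcre-labelled replicate 3 lay on the floxed side of floxed replicate 2.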

How the data were processed

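RNA of 12 libraries was sequenced, and 6 of them are compared. Per the labels' protocols, RNA was isolated with Trizol and libraries were built by a commercial provider. The deposited table holds a signal, called normalized counts here: within 0.01 read, 100.0% of values are whole multiples of 1 step per library, so the authors had divided read counts by a size factor. The genome build is given as mm10, per the submitters' processing notes. No aligner, counter or strand option is named in the sources used here, so overlapping and near-identical genes are uncertain. The LysMcre G-CSF libraries were placed by their description and genotype, since their titles say untreated. For replicate 2 of the untreated LysMcre group the column is numbered 3.

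Values were taken as log2(value + 1), which understates changes of low genes. Genes with a mean under 10 over the 6 untreated libraries were left out (370 rows). The rest were fitted in limma 3.58.1 (R 4.3.3) with a trended prior and 4 residual degrees of freedom, and two-sided p-values were adjusted by Benjamini-Hochberg over 13565 genes. The design had count tests as alternatives if whole reads could be recovered: edgeR 4.0.16 and DESeq2 1.42.0 were run on them. The scripts were tested on simulated data for the genotype comparison without G-CSF. The simulation changed 200 genes, all with a mean of at least 50 normalized counts. It recovered 30% of changes of 1.25-fold, 66% of 1.5-fold, 96% of 2-fold and 100% of 4-fold. So many changed genes make the adjusted threshold easier to reach, and no gene of lower level was changed. These shares therefore do not carry over to the data, where 6 of 97 genes at least 2-fold apart passed. Of the simulated calls 10.98% were false, more than the threshold on the adjusted p is meant to allow. Sampling noise alone was smaller than the differences between replicates (chi-square per row 3.5 to 12.47). Positions come from GENCODE M21, which matched 13541 of 13935 symbols, or from RefSeq (GRCm38.p6) by synonym. Spreadsheet conversion had turned 17 names into dates.

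The members and lists were chosen with earlier results of these data known. Named were Socs3, Lyz2 and Lyz1; all called genes; genes called only in the 4-group fit; the 8 highest and 8 lowest not called with groups apart, unadjusted p under 0.01 and, in the higher group, a mean of 50 or more; the oxidase, Janus kinase, STAT and SOCS genes; and up to 4 members per list. Numbered predicted genes, Riken clones, microRNA, small nucleolar, pseudogene, mitochondrial and immunoglobulin segment names were left out of the widest-difference and list parts. Immunoglobulin constant genes were left out with the segments. Other immunoglobulin genes, neighbours of called genes and further interferon, granule and marker genes were named after their values were seen. A few list members are not reported here by name. No set test was run.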

Additional observations from a re-analysis of the deposited data

Results flagged for a closer look

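The genotype difference itself differed with G-CSF, by the limma interaction over all 12 libraries, for 9 of the 33 genes whose 2 differences were compared, beside 22.4% of all genes tested. Most of the 33 were chosen by their untreated differences, which the interaction uses again, so this share is not that of an unselected set. The values are the log2 difference with G-CSF minus that without. They were 1.97 for Il1r2, 1.14 for Fam46c, 0.86 for Nos2 and 0.56 for Socs3, where the LysMcre-labelled level was relatively higher with G-CSF. They were -1.78 for Ifit1bl2, -1.14 for Lyz2, -1.08 for Ddx60, -0.71 for Nnt and -0.37 for Clec2d, where it was relatively lower. The limma adjusted p was largest for Nos2 (0.047) and Clec2d (0.027). For Nos2 the untreated values rest on few reads. For Lyz2 both differences are falls and the interaction widens them.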

How the results depend on the processing

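Of 18 alternatives, the count of called genes stayed within 1.5 times of 12 in 16. It was 31 in DESeq2 (20 higher) and 6 without the trended prior (2 higher). Leaving out 1 library at a time gave 9 to 14 calls, and each pair that then stands against 3 assumes the same spread. Lyz2, Dynlt1b, Tmem181b-ps, Fam46c, Nfatc1 and Igkv8-30 kept their calls in all 18. Lyz1, Wdfy1 and Ighg2b lost theirs only without the trended prior, Mdm1 and Nnt in 4 alternatives each and Glb1 in 8. No called gene changed sign. Of the genes read with G-CSF, 8 to 9 of the 12 passed in the same direction with 1 G-CSF library left out, and 9 in the fit of all 4 groups. Quantile normalization added Myh9 and Retnlg. Same-numbered libraries were not treated as pairs in the main fit. Deviations of same-numbered floxed and LysMcre-labelled untreated libraries correlated at -0.10, 0.21 and 0.31, and those of other numbers at -0.39 to 0.27. Between untreated and G-CSF libraries of the same number it was 0.46, 0.34 and 0.06 in floxed and 0.29, -0.04 and 0.01 in LysMcre-labelled. With 3 libraries a group these values can neither show nor exclude pairing. With the replicate block 17 genes passed, the 12 and Arl2bp, Ciapin1, Gm12474, Gm42868 and Ifit1bl2, and with it 9 of the 12 passed with G-CSF.

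The precision rests on 3 libraries a group and 19495754 to 24748708 reads each, and 3 reads are worth 2.57 to 3.197 normalized counts. A gene outside the threshold is not shown to be equal. Reads of the lysozymes, the Dynlt1 and Tmem181 copies and immunoglobulin segments may be shared.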

Other observations

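Several genes outside the comparison's calls stood apart in 1 LysMcre-labelled untreated library and in 1 LysMcre-labelled library with G-CSF. Zfp69, a zinc finger gene, stood at 59.95, 169.3 and 39.92 normalized counts in LysMcre-labelled untreated replicates 1, 2 and 3 and at 27.74, 23.59 and 112.7 with G-CSF, beside 29.98 to 36.7 in floxed untreated libraries. Adgrg5 stood at 9.465, 85.1 and 5.571 without and 18.49, 17.69 and 71.93 with G-CSF, and Ciapin1 at 483.8, 670.5 and 464.2 and at 451.9, 498.9 and 689.3. In each case the untreated library is replicate 2, whose column carries the number 3, and the library with G-CSF is replicate 3. Igkv3-4 was high in replicate 1 of both groups, at 201.9 without and 195.3 with G-CSF, against at most 25.95 in the other LysMcre-labelled libraries. Over 129 immunoglobulin segments, deviations from the group mean correlated at 0.56 between replicate 1 without and replicate 1 with G-CSF and at 0.40 between untreated replicate 2 and G-CSF replicate 3, and at 0.09 between the 2 libraries titled replicate 2. The segments share libraries and loci and are not independent, and the labels do not say which libraries share a mouse.

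The predicted genes Gm16867 and Gm27177 on chromosome 14 lay lower together without being called. Gm16867 stood at 131.1, 123.4 and 171.3 normalized counts in floxed libraries and at 24.19, 0 and 37.14 in LysMcre-labelled ones (log2 -3.84, limma adjusted p = 0.992), and with G-CSF at 110.5, 100.7 and 111.1 against 11.56, 1.179 and 0. Gm27177 stood at 30.91, 26.56 and 21.65 against 5.258, 0 and 3.714 and passed in DESeq2 (adjusted p = 0.00306). The collagen gene Col1a2 stood at 10.66, 20.56 and 25.41 against 2.103, 4.298 and 4.642 (log2 -2.05, limma adjusted p = 0.534), while its partner Col1a1 was at -0.17. These were chosen after their values were seen.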
